A study of Oryzias latipes with 2 samples.

Results

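Melanotropes are the endocrine cells of the pars intermedia that make α-melanocyte-stimulating hormone (α-Msh). In the deposited annotation of the medaka pituitary they form 1 cluster in each sex, and the cells described here are all those that carry that name. They numbered 107 of 6396 cells in the series, 54 of 2592 in the female library and 53 of 3804 in the male library. The libraries were made from the pooled pituitaries of 24 females and 23 males, adults of about 8 months. All fish were of the d-rR strain and carried the same transgene, in which the *lhb* promoter drives GFP, so both groups share the reporter and neither has a control without it. Dissociated cells were captured on the 10x Chromium platform, and transcripts were counted from their 3′ ends by unique molecular identifier (UMI). Each sex is 1 pooled library, so there are no replicates, no test was made, and the effect of sex and that of the library cannot be told apart.

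Melanotropes and corticotropes both express *pomca*, which encodes proopiomelanocortin. The precursor is cut into adrenocorticotropic hormone in corticotropes and, further, into α-Msh in melanotropes, a hormone known in fish for its part in skin colour. In teleosts the corticotropes lie in the rostral pars distalis and the melanotropes in the pars intermedia, next to the nerve endings of the neurohypophysis. The labelled markers of the melanotropes are *pomca* and *tph1*, the gene of tryptophan hydroxylase, the rate-limiting enzyme of serotonin synthesis.

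The files held 11750195 UMIs in the female and 17691130 in the male library, with a median of 3758 and 3422 UMIs per cell. Melanotropes were deep cells. In females the median melanotrope held 9161 UMIs, with cells from 3330 to 26327. In males the median was 18325, with cells from 1522 to 60111. Corticotropes, of which there were 25 and 55, had medians of 5350 and 4906. Melanotropes made up 2.43% of the female cells that were not red blood cells (exact 95% interval 1.83 to 3.16) and 1.63% of the male ones (1.23 to 2.13). They held 4.53% and 5.51% of all UMIs of their library. The libraries shared 16 cell barcodes, and none of them belonged to a melanotrope. All intervals below are for 95% and cover counting error only, since UMIs of 1 cell and cells of 1 library are not independent.

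*pomca* took up most of the transcripts of these cells. It made up 57.4% of the UMIs of the female melanotropes (305408 UMIs, Poisson interval 57.2 to 57.6%) and 62.6% of those of the male ones (610355 UMIs, 62.5 to 62.8%). In the corticotropes it made up 26.1% in females and 26.2% in males. Per cell, the female melanotropes ranged from 20.0% to 82.9% with a median of 59.4%, and the male ones from 1.83% to 88.5% with a median of 64.3%. The female corticotropes ranged from 13.9% to 39.2% with a median of 26.0%, and the male ones from 6.96% to 55.1% with a median of 25.4%. More than 50% of the UMIs came from *pomca* in 41 of 54 melanotropes in females and 42 of 53 in males, against 0 of 25 and 1 of 55 corticotropes. The ranges of both types therefore overlapped in each sex, although their medians lay far apart. Of all *pomca* UMIs, 82.6% in females and 79.1% in males lay in melanotropes.

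**Figure D1:**
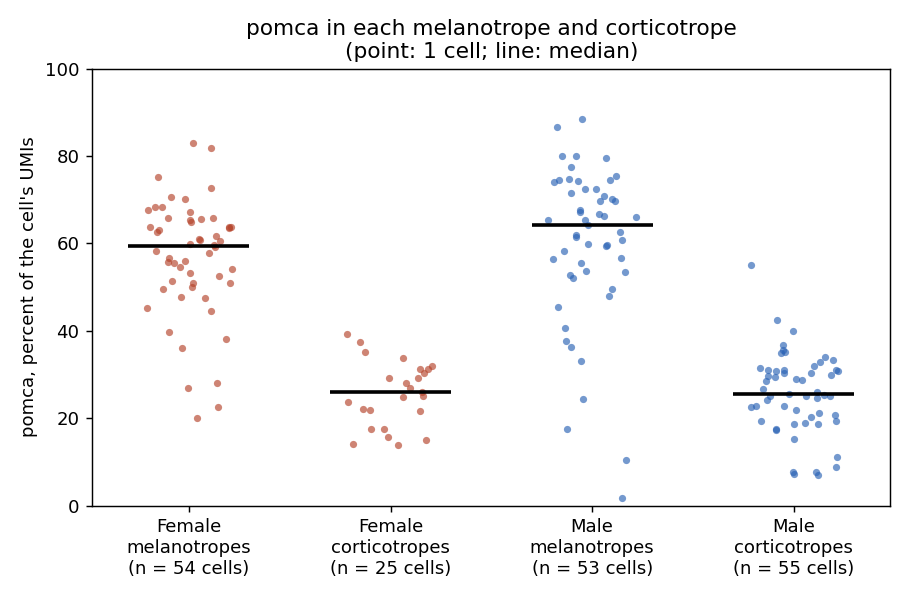
*pomca* as a percent of all UMIs in each melanotrope and corticotrope of the female and male library; each point is 1 cell and each line the median. The medians are 59.4% and 64.3% in melanotropes and 26.0% and 25.4% in corticotropes, and a few melanotropes of each sex lie below the corticotrope median of that sex.

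In the types other than melanotropes and corticotropes, the median cell had between 12.2 and 21.8 *pomca* UMIs per 10000 in females and between 19.6 and 61.2 in males, and apart from red blood cells and female macrophages at least 98.6% of the cells of each type had a UMI. This low level in all these types was taken as a reference, and its source was not tested. Only 3 cells of these types had 25% or more *pomca*. A female uncharacterized cell had 39.3%, with 33 UMIs of *crhbp* and 26 of *oacyl*, genes that were high in melanotropes (below). A male thyrotrope of 35112 UMIs had 37.3%, with 357 *tshba* and 585 *prl* UMIs per 10000. It alone held 96.2% of the *pomca* UMIs of the male thyrotropes. A male Lh gonadotrope of 1683 UMIs had 76.6% *pomca* and only 11.9 *lhb* UMIs per 10000.

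The high share of *pomca* bears on every other level in these cells, because levels are given per 10000 UMIs of the type. Without *pomca*, the median female melanotrope had 3567 UMIs and the median female corticotrope 3901. In males these values were 5843 and 3661. Thus in females the larger depth of melanotropes lay in *pomca* alone, whereas in males the other transcripts were also more numerous. When every cell was thinned to 2000 UMIs, the median female melanotrope showed 468 genes and the median male one 399, against 709 and 660 in corticotropes. The unthinned medians were 1373 and 1831 genes in melanotropes. With the 7 hormone genes left out and cells thinned to 1000 UMIs, the medians were 536 and 519 genes in melanotropes and 534 and 514 in corticotropes. The number of genes detected beside the hormones was thus nearly the same in both types. At that depth 1 female and 4 male melanotropes were too shallow and were left out.

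Reads from introns gave the same picture in females, while in males a smaller difference between the types remained without the hormone genes. Introns gave 7.56% of the exon and intron counts in female melanotropes and 5.17% in male ones, the lowest of all types in both sexes. *pomca* was read almost only from exons, with 120 intron counts beside 304234 exon counts in female melanotropes. With the hormone genes left out, the intron share was 18.0% in female melanotropes and 18.0% in female corticotropes, and 14.1% and 16.4% in males.

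*tph1* was highest in the melanotropes by sums, but the sums hid a difference in how its UMIs were spread over cells. Its level was 9.05 UMIs per 10000 in female melanotropes (482 UMIs, interval 8.26 to 9.90) and 5.39 in male ones (525 UMIs, 4.94 to 5.87). In corticotropes it was 5.53 and 5.15 per 10000, so that the ratio of melanotropes to corticotropes was 1.64 (1.29 to 2.10) for the female library and 1.05 (0.887 to 1.24) for the male one. Leaving the hormone genes out of the total gave ratios of 2.84 (2.25 to 3.64) and 2.10 (1.78 to 2.48), past 2-fold in both sexes. At least 1 UMI was found in 43 of 54 female melanotropes (79.6%) and 43 of 53 male ones (81.1%). In corticotropes this was so in 6 of 25 (24.0%) and 13 of 55 (23.6%). Thinned to 2000 UMIs, the shares were 57.4% and 40.8% in melanotropes and 20.8% and 20.4% in corticotropes.

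In female corticotropes, 1 cell held 60 of the 82 *tph1* UMIs, and the top 3 cells held 96.3% of them. In male corticotropes the top 3 cells held 47.8% and the top 10 held 97.5%. In melanotropes the top 3 cells held 28.2% in females and 25.5% in males. The corticotropes with 20 or more *tph1* UMIs had between 21.9% and 31.1% *pomca* and 0 UMIs of *crhbp* and *oacyl*. In a pair of these male cells, with 25 and 26 *tph1* UMIs, the metallothionein gene *mt2* stood at 62.3 and 104.4 UMIs per 10000, near the median of 74.6 in male melanotropes and above that of 5.25 in male corticotropes. In the other male cells with 20 or more *tph1* UMIs, *mt2* was only between 1.67 and 9.03 per 10000. The female cell with 60 *tph1* UMIs had 0 UMIs of *mt2*. In lactotropes, which had a median depth of 6447 and 5763 UMIs, 4.17% and 6.55% of cells had a *tph1* UMI, at 0.0525 and 0.112 per 10000. The share in corticotropes lay above that in lactotropes. Still, 11 female and 10 male melanotropes had no *tph1* UMI, so the gene marked most of the cells but not each of them.

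**Figure D2:**
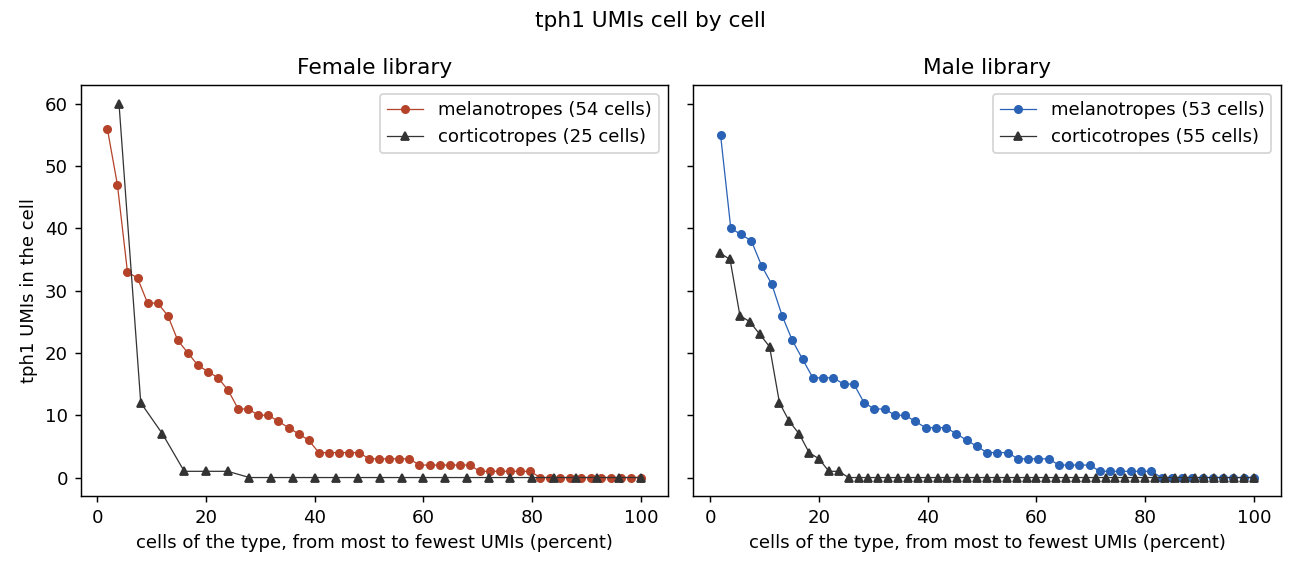
*tph1* UMIs in each cell (vertical axis), with the cells of each type ordered from most to fewest along the horizontal axis as a percent of the type, for the female and male library. The curve of the corticotropes drops to 0 after 24.0% (female) and 23.6% (male) of cells, and that of the melanotropes after 79.6% and 81.1%.

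*crhbp*, *oacyl* and *mt2* were the named genes besides *pomca* that were at least 2-fold above every other type in both sexes. *crhbp* encodes the binding protein of corticotropin-releasing hormone. Its level was 25.6 UMIs per 10000 in female melanotropes (1365 UMIs) and 22.1 in male ones (2155 UMIs), and a UMI was found in 54 of 54 and 49 of 53 cells. The female corticotropes held 1 UMI, which gives a ratio of 380.2 with a wide interval of 68.1 to 15029. The male corticotropes held 33 UMIs and the ratio was 26.4 (18.7 to 38.5). Of those 33 UMIs, 23 came from 1 corticotrope of 20534 UMIs, the one with 55.1% *pomca*, which also had 10 *oacyl* UMIs. Without this cell the male ratio was 82.6 (44.8 to 172.4). The next type was somatolactotropes in females at 6.25 per 10000, in which 86.7% of cells had a UMI, and thyrotropes in males at 2.14. In the latter, 51 of 53 UMIs lay in the 1 cell with 37.3% *pomca* described above, and the type after them, somatolactotropes, had 1.66 per 10000.

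*oacyl*, named as an acyltransferase-like gene, led the genes ranked by their ratio to the highest other type, at 14.4 and 12.2 UMIs per 10000 in females and males. No other type exceeded 0.433 in females or 0.969 in males. The ratio to corticotropes was 42.8 (18.3 to 132.3) in females and 21.8 (14.3 to 34.9) in males, where it was 37.8 (21.6 to 73.4) without the corticotrope with 55.1% *pomca*. It was found in 53 of 54 female and 48 of 53 male cells, and 53 and 48 cells had both *oacyl* and *crhbp*. In lactotropes 15.6% and 17.6% of cells had an *oacyl* UMI, at 0.216 and 0.270 per 10000. Unlike *crhbp* and *pomca*, *oacyl* was also read from introns, which gave 38.6% of its exon and intron counts in female and 34.4% in male melanotropes.

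*mt2* encodes a metallothionein, a small protein that binds zinc and copper. It was second only to *pomca* in female melanotropes, at 100.4 UMIs per 10000, and stood at 108.4 in male ones. In corticotropes it was 14.9 and 18.7, a ratio of 6.73 (5.89 to 7.74) and 5.78 (5.37 to 6.24). Its use was not limited to melanotropes, since the next types, Fsh gonadotropes in females and thyrotropes in males, had 37.1 and 33.2 per 10000. Of the 822 *mt2* UMIs of the male thyrotropes, however, 495 lay in the 1 cell with 37.3% *pomca*, and the type after them, *cga*-expressing cells, had 20.6 per 10000. The median cell separated the types more clearly, with 104.8 and 74.6 per 10000 in melanotropes and 8.24 and 5.25 in corticotropes.

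*qpct*, which encodes glutaminyl cyclase, an enzyme that modifies the N-terminus of peptide hormones, was higher in melanotropes than in corticotropes but not highest there. Its level was 6.89 and 7.35 UMIs per 10000 in melanotropes and 0.742 and 1.37 in corticotropes, a ratio of 9.29 (5.13 to 18.8) and 5.36 (4.06 to 7.21). The *cga*-expressing cells had 22.9 and 24.0 per 10000, and all gonadotrope types had about as much as melanotropes or more. In this gene melanotropes resembled the glycoprotein hormone cells more than the other *pomca* cells.

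**Figure D3:**
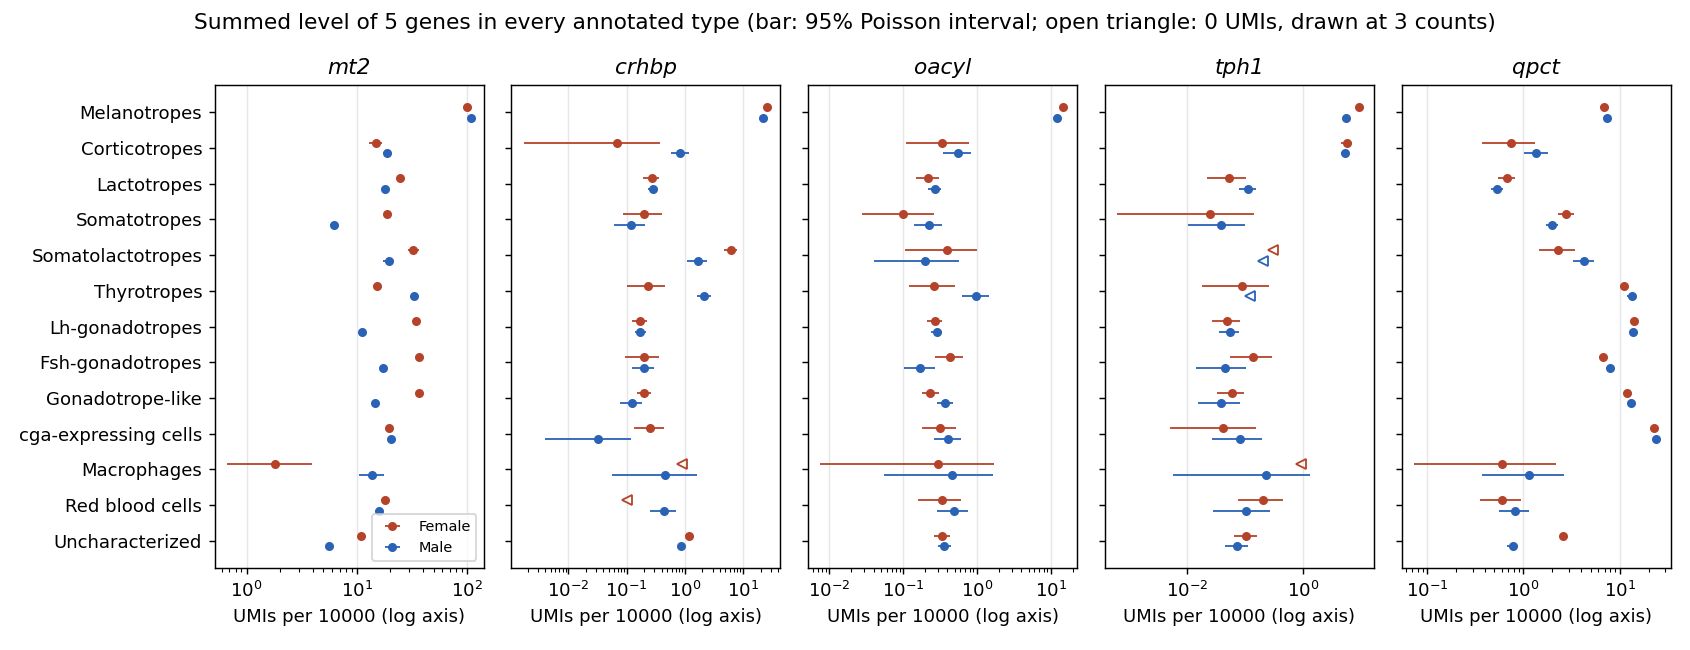
Level of *mt2*, *crhbp*, *oacyl*, *tph1* and *qpct* in UMIs per 10000 (horizontal log axis) in each of 13 annotated types (vertical axis), female in red and male in blue; bars are 95% Poisson intervals and open triangles mark 0 UMIs, drawn at 3 counts. *crhbp* and *oacyl* are above 12 per 10000 in melanotropes and at 6.25 or less elsewhere, *tph1* is near 5 in corticotropes too, and *qpct* is highest in *cga*-expressing cells.

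Against corticotropes, genes were compared across the whole table where both types together had 30 or more UMIs. In females 63 of 1362 genes (4.63%) were at least 2-fold higher in melanotropes and 545 (40.0%) at least 2-fold lower. In males 71 of 2294 (3.10%) were higher and 1268 (55.3%) lower. The median ratio of all genes was 0.564 in females and 0.469 in males, a shift of -0.83 and -1.09 on the log2 scale, so the whole distribution was shifted toward lower levels. With the 7 hormone genes left out of the total, the median ratios were 0.979 and 0.942. Then 175 genes (12.8%) were higher and 160 (11.7%) lower in females, and 225 (9.81%) were higher and 301 (13.1%) lower in males. The share of higher genes among those past 2-fold thus went from 10.4% to 52.2% in females and from 5.30% to 42.8% in males.

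Of the 1345 genes compared in both sexes, 33 were at least 2-fold higher in both, which is 56.9% of those higher in females and 78.6% of those higher in males, and 461 were at least 2-fold lower in both. Once the hormone genes were left out of the total, 85 genes were higher and 123 lower in both sexes. The types were named from clusters of the same counts, so these numbers describe the types and do not test them. Names were at hand for 63 genes, most of them picked by the authors as markers in these libraries. Of the 43 named genes compared in females 5 were higher and 13 lower, with a median log2 ratio of -0.07, and of the 48 in males 8 were higher and 15 lower, with a median of -0.26. Without the hormone genes in the total, the balance turned to 15 higher and 8 lower in females (median 0.73) and 22 higher and 11 lower in males (median 0.75).

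**Figure D4:**
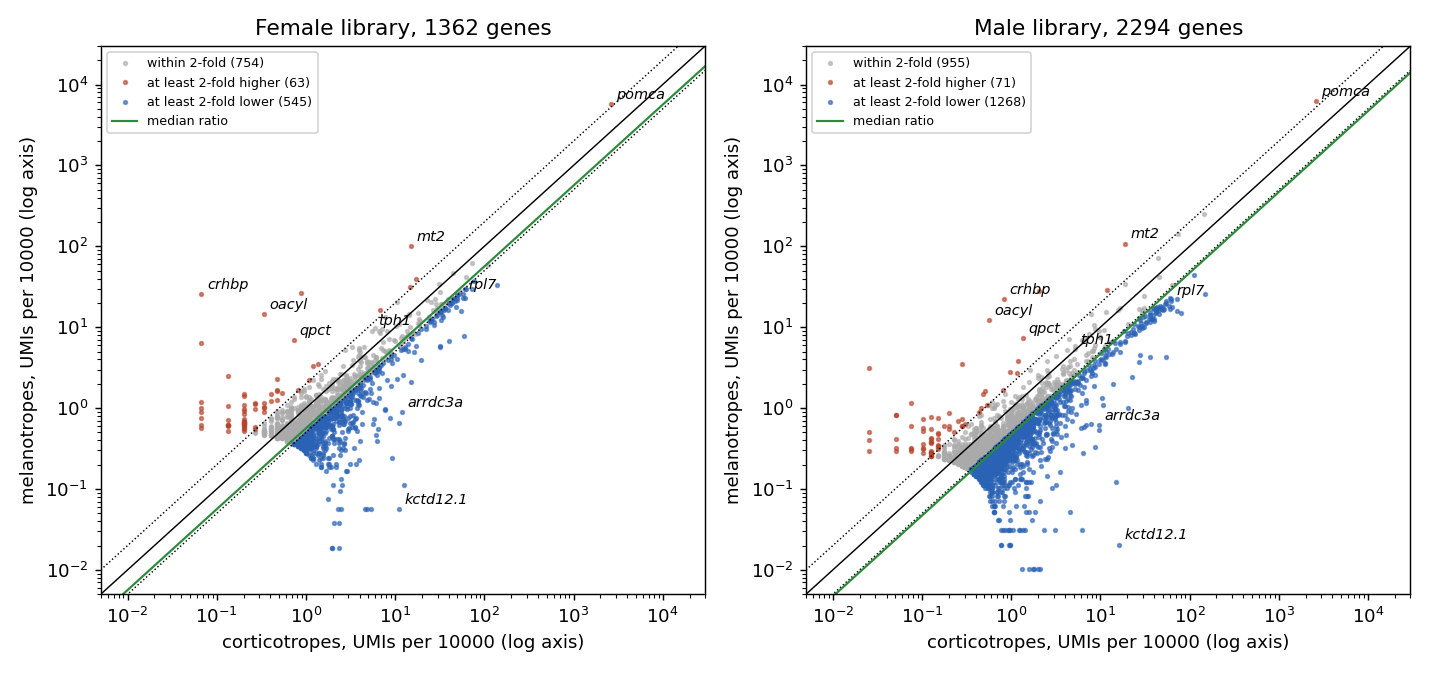
Level of each compared gene in corticotropes (horizontal log axis) and melanotropes (vertical log axis), in UMIs per 10000, for the female and male library; the solid black line marks equal levels, dotted lines 2-fold, the green line the median ratio, and a type at 0 UMIs is drawn at 3 counts. The cloud lies below the line of equal levels, at median ratios of 0.564 and 0.469, and *crhbp*, *oacyl*, *qpct* and *mt2* lie far above it.

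The genes with the largest ratios were ranked by the weaker sex, and of the first 15 only *crhbp*, *oacyl*, *mt2* and *qpct* had a name. Among those without, ENSORLG00000006472 reached 26.8 and 28.4 UMIs per 10000 in female and male melanotropes, as much as *crhbp*, and was found in 54 of 54 and 49 of 53 cells. Its ratio to corticotropes was 30.6 (17.9 to 57.7) in females and 14.0 (11.2 to 17.7) in males. ENSORLG00000026115 was lower in level, with 2.52 and 3.12 per 10000, and the corticotropes had only 2 and 1 UMIs of it. Its ratio was 18.7 (5.07 to 155.7) and 122.9 (21.9 to 4870).

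The smallest ratio to corticotropes was that of *kctd12.1*, related to the mammalian gene of a GABA-B receptor subunit. Its median over the other 12 types was also low, at 0.0589 UMIs per 10000 in females and 0.0420 in males, and corticotropes had the highest level. Female melanotropes had 0 of its UMIs in 54 cells and male ones 2 UMIs in 53, whereas corticotropes had 163 UMIs (10.99 per 10000, in 23 of 25 cells) and 640 UMIs (16.2 per 10000, in 47 of 55 cells). With 3 counts in place of 0, its level was 195.1-fold lower in female melanotropes (the exact interval of the ratio reaches down to 156.8-fold). In males corticotropes had 791.6 times the level of melanotropes (interval 218.2 to 6550). *pde6ha (1 of many)*, named after a phosphodiesterase subunit that mammals use in cone photoreceptors, had 6 and 12 UMIs in melanotropes and 187 and 586 in corticotropes. Corticotropes had 111.9 times (50.4 to 308.8) and 120.8 times (68.6 to 235.1) the level of melanotropes. Melanotropes still ranked 4 of 13 types for this gene in both sexes, so most types had less of it. Of the 15 genes with the smallest ratios only *kctd12.1* and *pde6ha (1 of many)* had a name. Among the others, ENSORLG00000000216 had 0 UMIs in the melanotropes of both sexes and 72 and 248 in corticotropes, and ENSORLG00000003829 had 1 and 1 against 35 and 83. The highest level of ENSORLG00000003829 was in macrophages, at 7.85 and 6.40 per 10000 against 2.36 and 2.11 in corticotropes. Only 5 of 25 female corticotropes had a UMI of it, and the top 3 cells held 30 of the 35. In females ENSORLG00000000216 was found outside corticotropes only as 1 UMI in red blood cells.

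Other named genes were lower by less but in both sexes, also with the hormone genes left out of the total. *arrdc3a*, an arrestin-domain gene, had 0.883 and 0.616 UMIs per 10000 in melanotropes and 11.9 and 9.75 in corticotropes. Corticotropes had the highest level of all types, and the median over the 12 types other than melanotropes was 1.05 and 0.868. Carbonic anhydrase 1, of the family that forms bicarbonate from CO2, had 0.958 and 0.328 against 7.62 and 8.76. Its median over those 12 types was 5.89 and 3.38. Both genes named *HSPA2 (1 of many)*, members of the Hsp70 chaperone family, had 7.72 and 2.10 per 10000 in female melanotropes against 58.8 and 14.97 in female corticotropes. In males these levels were 4.24 and 1.098 against 53.9 and 10.7. The medians over those 12 types were 10.8 and 2.65 in females and 8.94 and 2.08 in males. How reads of near-identical Hsp70 copies were counted is not stated, so the split between these genes is uncertain. With the hormone genes left out, the ratio was 0.128 and 0.127 for *arrdc3a*, 0.218 and 0.0753 for carbonic anhydrase 1 and 0.228 and 0.158 for ENSORLG00000028255, the more abundant *HSPA2* gene. *tmc2b*, named after a hair cell channel gene of zebrafish, had ratios of 0.457 and 0.495 on this scale. With all genes in the total it had 1.26 and 0.852 per 10000 in melanotropes, beside medians of 1.26 and 1.64 over those 12 types.

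The ribosomal protein gene *rpl7* showed what the choice of denominator does. It had 25.4 and 21.3 UMIs per 10000 in melanotropes and 58.3 and 62.2 in corticotropes, a ratio of 0.437 and 0.343. With the hormone genes left out the ratio was 0.758 and 0.688, within 2-fold. *nr5a1b*, the homologue of the gonadotrope factor Sf1, had only 1.78 and 1.03 per 10000 in melanotropes and 2.09 and 1.17 in corticotropes. *cabp5a*, a calcium-binding protein gene, had 20.6 and 14.7 per 10000 in melanotropes against 10.5 and 7.82, ratios of 1.97 and 1.88, just inside 2-fold. On the scale without the hormone genes its ratios were 3.42 and 3.77, past 2-fold. Melanotropes were not its main type, since *cga*-expressing cells had 310.6 and 282.1 per 10000. The median over the other 12 types was 15.4 and 11.9 per 10000, near the level of melanotropes.

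When melanotropes were set against the highest of the other 12 types, 8 of 911 genes in females (0.878%) and 9 of 1275 in males (0.706%) were at least 2-fold above all of them, and 8 genes were so in both sexes. Among the shared genes were *oacyl*, *crhbp*, *mt2* and *pomca*. Macrophages had only 33122 and 43765 UMIs, so a gene without a UMI there was still set at 3 counts, which is about 0.906 and 0.685 per 10000. With types of fewer than 20 cells left out, a choice made after the cell numbers were seen, the counts were 21 and 14. With the hormone genes left out of the total they were 27 (2.96%) and 30 (2.35%).

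A few melanotropes did not carry the profile of the rest. In males, 4 cells had *pomca* under 25%, at 1.83%, 10.5%, 17.6% and 24.4%. The first 3 of them had between 1522 and 2903 UMIs and 0 UMIs of *tph1*, *crhbp* and *oacyl*. The fourth had 8755 UMIs, 21 of them *crhbp* and 14 *oacyl*, so its markers were present. In females 2 cells had *pomca* under 25%, at 20.0% and 22.4%, and both had *crhbp* and *oacyl* UMIs. The 4 male cells without *crhbp* had at most 2903 UMIs, and their median was 2070. Leaving out the cells under 25% changed the number of genes at least 2-fold higher than in corticotropes to 61 in females and 64 in males.

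Among the named genes, the female and male melanotropes differed most in GFP and in hormone genes of other endocrine cells. GFP, listed as GFP-cassette, stood at 37.6 UMIs per 10000 in female and 250.5 in male melanotropes, and male cells had 6.66 times the female level (6.36 to 6.97). *lhb*, the β-subunit of luteinizing hormone, stood at 12.8 and 70.8, a male to female ratio of 5.54 (5.12 to 5.997). *cga*, the common α-subunit of the glycoprotein hormones, stood at 47.0 and 140.5, a ratio of 2.99 (2.87 to 3.12). In corticotropes the male to female ratios were 1.85, 2.40 and 1.65, and the median over the other types was 1.89, 1.91 and 1.05.

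The per-cell values showed that the sums rested on few male cells. The median melanotrope had 8.14 *lhb* UMIs per 10000 in females and 15.5 in males, close to the 8.34 and 14.1 of lactotropes. The paper counts a few cells with both *lhb* and *prl*, and a few with both *lhb* and *pomca*, in each sex. In melanotropes the medians of GFP were 20.2 and 38.8 (lactotropes 24.4 and 48.0), and those of *cga* were 21.0 and 21.3 (lactotropes 22.01 and 19.3). In 7 male and 0 female melanotropes *lhb* was 1% or more of the UMIs. These 7 cells held 79.0% of the *lhb*, 69.6% of the GFP and 73.5% of the *cga* UMIs of the male melanotropes, and 18.0% of the *pomca*.

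Most of the 7 cells were among the deepest male melanotropes, but 1 of them, with 19265 UMIs, lay near the type's median of 18325. The 7 cells had between 19265 and 36465 UMIs with a median of 32754, against a median of 13202 in the other 46 male melanotropes. Their *lhb* ran from 116.9 to 565.0 UMIs per 10000 and their *pomca* from 37.6% to 67.6%, with medians of 194.1 per 10000 and 49.6%. The median *pomca* of the other male melanotropes was 65.7%. All 7 had *crhbp* (13 to 78 UMIs), *oacyl* (12 to 66 UMIs) and *tph1* (1 to 55 UMIs). They thus carried the genes of both types and more UMIs than most cells of either, since Lh gonadotropes had a median of 4731 UMIs in males. The part of remaining doublets in this was not tested. Without these 7 cells the male to female ratio in melanotropes was 2.60 for GFP, 1.49 for *lhb* and 1.02 for *cga*. The corticotropes had cells with 1% or more of *lhb* too, 2 in females and 3 in males. Such cells were not limited to the *pomca* types. In males, 7 of 46 thyrotropes, 4 of 38 somatolactotropes, 3 of 127 somatotropes and 1 of 397 lactotropes had over 100 *lhb* UMIs per 10000. In females these were 7 of 69, 0 of 15, 1 of 52 and 0 of 192.

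**Figure D5:**
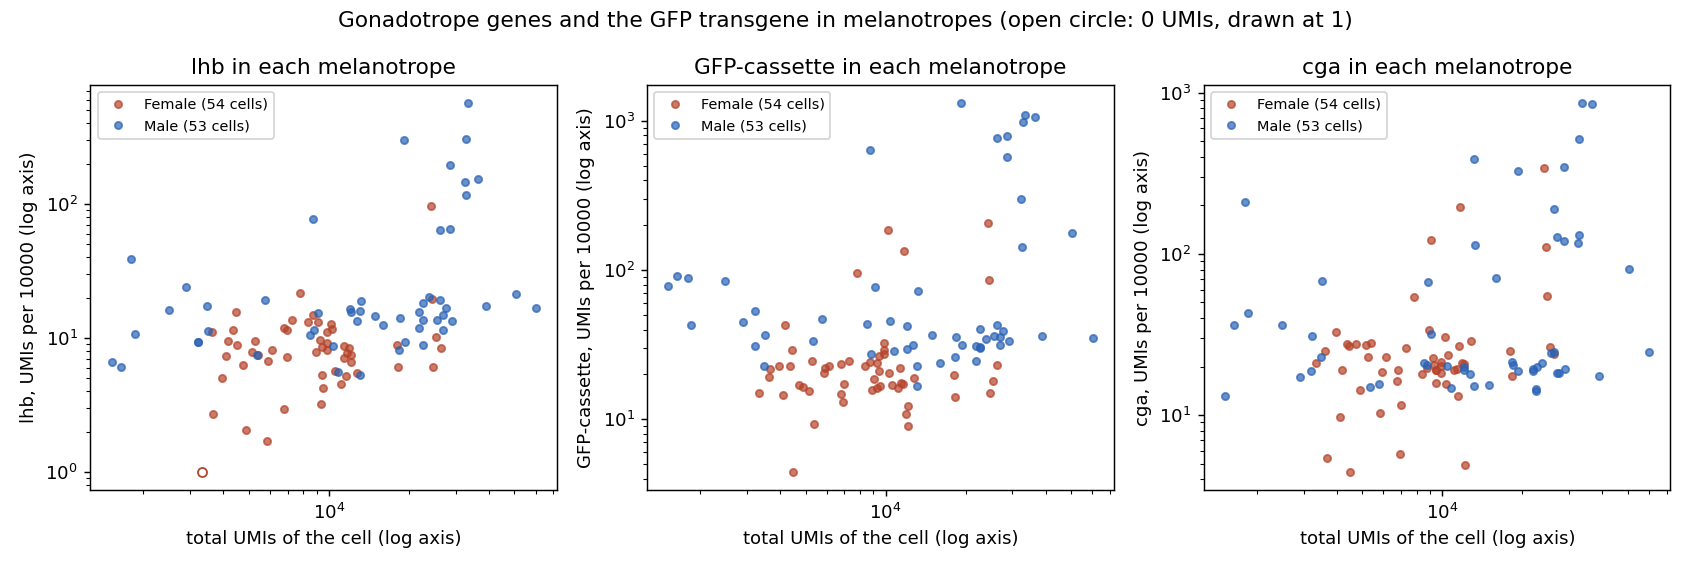
*lhb*, GFP and *cga* in each melanotrope, in UMIs per 10000 (vertical log axes), against the total UMIs of the cell (horizontal log axes), female in red and male in blue; an open circle marks 0 UMIs, drawn at 1. Most cells of both sexes lie near the medians of 8.14 and 15.5 for *lhb*, and 7 male cells of 19265 to 36465 UMIs lie above 100 per 10000.

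*tshba*, the β-subunit of thyroid-stimulating hormone, also stood higher in the male melanotropes, at 3.86 UMIs per 10000 against 0.883, a ratio of 4.37 (3.22 to 6.05). It was 1.28 and 1.19 per 10000 in female and male corticotropes. Of the 376 UMIs in male melanotropes, 77.7% lay in 4 cells, and without the 7 cells above the ratio was 3.27. *gh1*, the gene of growth hormone, had 3.74 and 8.22 per 10000, but its ratio of 2.20 was near that of corticotropes (1.78). *prl*, the gene of prolactin, had 14.1 and 16.2 per 10000, near the 14.4 and 15.6 of corticotropes. *fshb*, the β-subunit of follicle-stimulating hormone, had 4.30 and 6.83 per 10000, but 228 and 160 of its 665 UMIs in males lay in 2 of the 7 cells above, and without the 7 cells the male level was 3.11 and the female to male ratio 1.38. The level of *smtla*, the gene of somatolactin, was 2.31 and 1.02.

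As a share of all UMIs, *pomca* itself had a male to female ratio of 1.092 (1.087 to 1.097) in melanotropes and 1.002 in corticotropes. With the hormone genes left out of the total, its ratio in melanotropes was 1.27. *tph1* was higher in females, 1.68 times the male level (1.48 to 1.90), and 1.44 times with the hormone genes left out of the total. The share of cells with a *tph1* UMI was nearly the same (79.6% and 81.1%) although the male cells were deeper. *crhbp* (1.16), *oacyl* (1.19) and *mt2* (0.926) had female to male ratios near 1. *apoeb*, an apolipoprotein gene, was 2.25 times as high in female melanotropes (1.89 to 2.67), 1.93 times with the hormone genes left out of the total, and 0.707 times in corticotropes. Of 44 named genes compared, 7 were at least 2-fold higher in female and 7 in male melanotropes. Over all genes compared these shares were 10.1% and 1.12%. With the hormone genes left out of the total, *smtla* (1.95), *apoeb* (1.93), *zgc:112255* (1.74) and *crabp1a* ENSORLG00000023034 (1.99) fell below 2-fold. The 7 named genes higher in males all stayed past it. The largest female to male ratios among the named genes were 2.92 for carbonic anhydrase 1, 2.73 for *zgc:122979* and 2.38 for *spidr*. With the hormone genes left out of the total these were 2.50, 2.34 and 2.04. With all genes in the total, the ratios in corticotropes were 0.870, 1.78 and 0.781. The medians over the 12 types other than melanotropes were 1.92, 1.91 and 0.785. Higher levels in the female library were thus not particular to melanotropes for carbonic anhydrase 1 and *zgc:122979*.

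Across all genes with 30 or more UMIs in the melanotropes of both libraries together, 216 of 2149 (10.1%) were at least 2-fold higher in females and 24 (1.12%) at least 2-fold higher in males, with a median female to male ratio of 1.28. With the hormone genes left out the median was 1.096 and the counts were 103 (4.79%) and 37 (1.72%). In corticotropes 47 of 1524 genes (3.08%) were higher in females and 47 (3.08%) in males, and with the hormone genes left out 47 (3.08%) and 50 (3.28%). None of the 10 genes with the largest female to male ratio had a name. For the first of them, ENSORLG00000023818, 37 of the 45 female UMIs lay in 1 cell, against 2 UMIs in males. ENSORLG00000014766 was more widely spread, with 122 UMIs in 25 of 54 female cells and 44 UMIs in 13 of 53 male ones, a ratio of 5.07 (3.57 to 7.34). Of the 10 genes with the largest male to female ratio, 4 had a name, GFP, *lhb*, *tshba* and *cga*. ENSORLG00000008605 followed *tshba* with a male to female ratio of 3.22 (2.32 to 4.55), and 25 of 54 female and 40 of 53 male cells had a UMI of it.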

How the data were processed

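Single-cell RNA-seq of 1 pooled pituitary library per sex was used. Its UMI counts, deposited by the authors as whole numbers that were not normalized, came from Cell Ranger and Seurat (versions, genome build and annotation not given in the sources used here). Exon and intron counts and a type for every cell were deposited too. Per the methods, doublets were removed before deposit, leaving 2592 and 3804 cells, as many as the files hold. Here counts were summed per type and given per 10000 UMIs. Ratios have exact conditional binomial intervals, levels Poisson and shares Clopper-Pearson intervals, all 95% and for counting error only. A count of 0 was set at 3 counts. Past 2-fold counts as a call. Sums of 1362 genes in females and 2294 in males were simulated with Poisson counting error only, and 200 genes of 100 or more UMIs were changed 4-fold. Of these 100% were recovered in both sexes, and 5.85% and 3.63% of unchanged genes passed 2-fold. Unchanged genes were simulated around a ratio of 1, whereas the median ratios in the data were 0.564 and 0.469. These rates therefore do not cover the shift of the whole distribution seen in the data. Spread between cells was not simulated. Recovery of smaller changes, or of genes with 30 to 100 UMIs, was not tested.

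The genes picked by rule, with or without a name, were the hormone genes, *cga*, *tph1* and members of gene lists. The 15 largest and 15 smallest ratios to corticotropes by the weaker sex were added, and the 15 largest over the highest other type. So were the 10 largest and 10 smallest female to male ratios not shared by the other types. Of 447 list symbols 11 matched a name in the deposited marker tables, so the lists are not described. Marker tables were read for names only, their means and p-values not used. The members and lists were chosen with earlier results of these data known. Single cells, the genes *rpl7*, *apoeb*, *cabp5a*, *tmc2b*, *arrdc3a*, carbonic anhydrase 1, *zgc:122979*, *spidr* and *HSPA2*, and 4 added alternatives were chosen after values were seen. Python 3.11.15, numpy 2.4.6, scipy 1.17.1 and pandas 2.3.3 were used.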

Additional observations from a re-analysis of the deposited data

Results flagged for a closer look

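For 3 genes without a name, the melanotropes were past 2-fold from the corticotropes in opposite directions in the female and the male library. With 1 library per sex this difference was not tested. The melanotrope to corticotrope ratio of ENSORLG00000002065 was 2.16 in the female library (interval 0.763 to 8.42) and 0.404 in the male library (0.231 to 0.708). That of ENSORLG00000003974 was 2.82 (1.37 to 6.75) and 0.442 (0.266 to 0.738), and 40 of its 81 UMIs in female melanotropes lay in 1 cell. That of ENSORLG00000012186 was 4.596 (1.18 to 39.5) and 0.253 (0.137 to 0.456), and 24 of its 32 UMIs in male corticotropes lay in 1 cell.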

How the results depend on the processing

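Of the counts and levels that answer a comparison, 56 values under an alternative moved past their counting interval or past 1.5 times the main count, and 56 did not. For single genes, with or without a name, 298 values moved, 546 did not and 9 changed sign. Each of these 9 was a ratio past 2-fold under the main settings, and ratios nearer 1 that crossed 1 are not among them. No paired analysis was possible because each sex is 1 library and the labels give no replicate numbers. The causes of the changes were not tested, except that a stricter filter, thinning and leaving out cells leave fewer genes to compare.

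With the hormone genes left out of the total, genes at least 2-fold higher and lower than in corticotropes were 175 and 160 in females and 225 and 301 in males. Thinned to 2000 UMIs per cell they were 13 and 124, and 12 and 272. With a minimum of 100 UMIs they were 16 and 158, and 19 and 443, and with no minimum 348 and 6545, and 473 and 6649. With the deepest cells of each library (above its 95th percentile, which took 16 of 54 female and 35 of 53 male melanotropes) left out they were 37 and 310, and 28 and 369. From exon counts 46 genes were higher in males.

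Genes 2-fold above every other type were 27 in females and 30 in males with the hormone genes left out, 21 and 14 without types of under 20 cells, and 5 in thinned female cells. Genes higher in female and in male melanotropes were 103 and 37 with the hormone genes left out, 18 and 7 thinned, 35 and 8 at a minimum of 100 UMIs, and 3619 and 557 with no minimum. By the mean over cells 64 were higher in males, without the cells holding another hormone gene 13 were higher in males, and without the deepest cells 35 were higher in females and 36 in males, so that the excess in females was no longer seen.

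The *pomca* share in females was 57.6% with the other hormone genes left out, 56.6% as a mean over cells, 56.9% thinned, 62.4% from exon counts and 56.4% without the deepest cells. In males it was 63.3%, 59.9%, 60.6%, 65.9% and 54.7% in the same order, and 66.0% without the cells holding another hormone gene. *tph1* per 10000 was 21.4 in females and 14.8 in males with the hormone genes left out, 8.08 and 4.80 as a mean over cells, and in males 4.29 thinned and 4.72 without the deepest cells. The share of melanotropes among cells was 1.82% in females and 0.589% in males without the deepest cells.

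The log2 ratio to corticotropes changed sign for GFP in females (0.74 without the cells holding another hormone gene), ENSORLG00000002065 in females (-0.43 thinned), ENSORLG00000003974 (-0.21 in females and 0.79 in males without the deepest cells) and ENSORLG00000012186 (-0.17 in thinned female cells, and in males 0.32 without the cells holding another hormone gene and 0.79 without the deepest cells). The log2 ratio of female to male melanotropes changed sign for ENSORLG00000003974 (-0.51 without the deepest cells) and ENSORLG00000012186 (-0.95 thinned). All these ratios were past 2-fold under the main settings. Ratios nearer 1 also crossed 1. The female to male ratio of *fshb* in melanotropes was 0.630 under the main settings. It was 1.38 without the cells holding another hormone gene and 1.71 without the deepest cells. That of *pomca* went from 0.916 to 1.03 without the deepest cells.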
